A study of Mus musculus with 8 samples.

Results

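The 10 genes described here are core genes of the insulin, Foxo and mTOR branch of the longevity regulating pathway, and they were taken by symbol from a gene table of mouse aorta. They are the insulin receptor gene Insr, the adaptor genes Irs1 and Irs2, the kinase genes Akt1 and Akt2, the transcription factor genes Foxo1, Foxo3 and Foxo4, and the kinase genes Mtor and Prkaa2. Each symbol matched 1 row, which gave 10 of the 35896 genes in the table.

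RNA-sequencing was performed on 8 libraries of aortic tissue from male C57BL6 mice, with 2 libraries in each of 4 groups. AngII mice were implanted at 11 weeks of age with minipumps that delivered angiotensin II, a vasoconstrictor hormone that raises blood pressure, at 2.8 mg/kg/d, and were sacrificed after 2 weeks of infusion. AngII+2W and AngII+3W mice received the same infusion and were sacrificed 2 and 3 weeks after it had ended, so that these groups address what persists after the hormone is withdrawn. CTRL mice were untreated, age-matched littermates, and the labels give neither their age nor the time point at which they were sacrificed. No deletion or transgene is named for any group. Each library pooled part of the aorta of 2 mice, and the tissue was sequenced whole, with its vessel wall and whatever surrounded it. The p-values therefore measure the spread between 2 pools in each group.

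Insulin and insulin-like growth factors bind receptor tyrosine kinases, and the adaptor proteins Irs1 and Irs2 pass the signal to phosphatidylinositol 3-kinase and to the Akt kinases. Akt phosphorylates the Foxo transcription factors, which then leave the nucleus, and it relieves the inhibition of mTOR complex 1, a kinase complex that promotes protein synthesis and restrains autophagy. AMPK, whose catalytic subunit alpha 2 is encoded by Prkaa2, senses low cellular energy and opposes mTOR, and reduced insulin and mTOR signaling prolongs life in several animal species. Much of this control acts on phosphorylation, which RNA levels do not show.

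The summed counts of a library were between 18130441 and 21498200, and mitochondrial transcripts took 8.15 to 18.3% of them, with the highest share in AngII+3W replicate 1. Smooth muscle markers, which define the aortic media, were present in every library, with 0 of 8 markers at 0, and their summed level was 7408 to 9523 CPM (counts per 1000000 counts of the library, with TMM-normalized library sizes) in CTRL against 1760 to 2187 in AngII, 3563 to 3936 in AngII+2W and 1919 to 3388 in AngII+3W. Cardiac muscle markers were also present and differed between replicates, with 2543 to 5804 CPM in CTRL, 977 to 1551 in AngII, 90.5 to 264 in AngII+2W and 506 to 6632 in AngII+3W. Skeletal muscle markers summed to 2764 CPM in AngII+3W replicate 1 and to between 5.96 and 74.9 CPM in the other libraries, in which up to 3 of the 10 markers were at 0. Adipocyte markers, of the fat around the vessel, were at 7868 to 11470 CPM over all libraries, and endothelial markers were at 969 to 1321 CPM. Fibroblast markers were at 2628 to 4089 CPM in CTRL and 16580 to 26530 in AngII, and leukocyte markers were at 232 to 276 and 508 to 927 CPM. Fewer cells of a type and less RNA per cell cannot be told apart in such tissue, and the part of tissue composition in the results below was not tested.

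None of the 10 genes passed an FDR of 0.05 in edgeR's quasi-likelihood test in any of the 6 comparisons between groups. In AngII against CTRL, 0 of the 10 genes were called while 5.10% of the 17182 genes tested were, and at an unadjusted p below 0.05 there was 1 gene, Foxo3, against a background of 20.2%. In AngII+2W against CTRL 0 were called with a background of 0%, and 1 gene, Akt1, had an unadjusted p below 0.05 against 10.7%. In AngII+3W against CTRL 0 were called with a background of 0.285%, and 3 genes, Irs2, Foxo1 and Foxo3, had an unadjusted p below 0.05 against 12.5%. The shares at an unadjusted p were thus near or below the background in AngII and AngII+2W, and 3 of 10 in AngII+3W. DESeq2, used as an alternative, called 0 of the 10 genes in AngII and AngII+2W, with a background of 9.24% and 2.17%, and 2 of them, Irs2 and Foxo1, as lower in AngII+3W, with a background of 3.40%. DESeq2 thus called more of all genes than edgeR in each of these comparisons.

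Between the AngII groups 0 of the 10 genes were called in each comparison, by edgeR as by DESeq2. The background of calls was 0.163% in AngII+2W against AngII, 1.61% in AngII+3W against AngII and 0% in AngII+3W against AngII+2W, and with DESeq2 it was 3.99%, 5.63% and 1.29% in the same order. At an unadjusted p below 0.05 there were 2 of the 10 genes in AngII+2W against AngII (Akt1 and Foxo4, background 15.0%), 0 in AngII+3W against AngII (background 17.8%) and 1 in AngII+3W against AngII+2W (Irs2, background 8.83%).

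Over the 10 genes the middle log2 fold change against CTRL, the median, was -0.20 (AngII), -0.19 (AngII+2W) and 0.01 (AngII+3W), while the median over all genes tested was -0.01, 0 and 0.03. Both libraries of a group lay below both CTRL libraries for 3 of the 10 genes in AngII (Foxo1, Foxo3 and Foxo4), where 24.9% of all genes did so. There were 4 such genes in AngII+2W (Insr, Akt1, Foxo1 and Foxo3) against 22.2% of all genes, and 4 in AngII+3W (Irs2, Akt1, Foxo1 and Foxo3) against 18.3%. Foxo1 and Foxo3 were the genes that lay below CTRL without overlap in all 3 comparisons, which share the same 2 CTRL libraries, and 7.04% of all genes did so. Together the 10 genes took 0.168 and 0.167% of the counts in the CTRL libraries and 0.147 to 0.161% in the others, so that CTRL had the higher sum in each case.

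**Figure D1:**
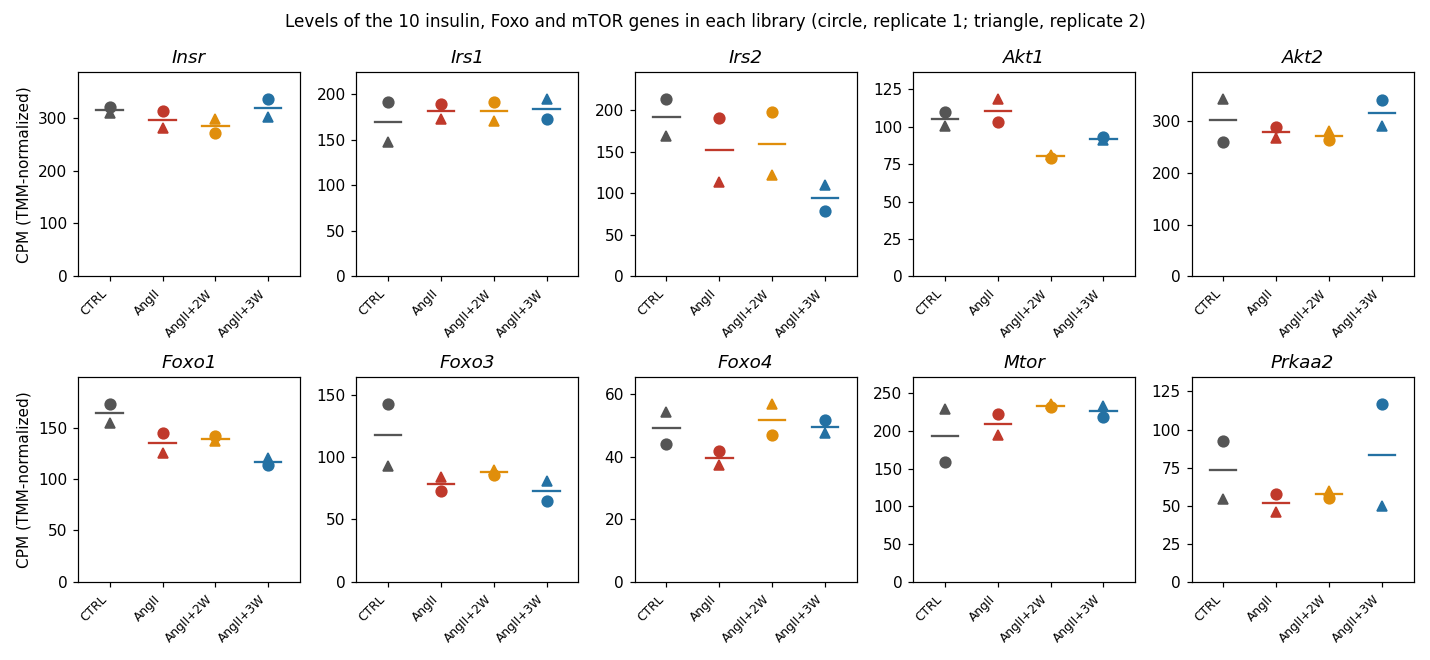
Level of each of the 10 genes (vertical axis, TMM-normalized CPM from 0) in the 8 libraries by group (horizontal axis), with a circle for replicate 1, a triangle for replicate 2 and a bar at the mean of the 2 libraries. Foxo1 and Foxo3 are lower than in CTRL in all 6 libraries of AngII-treated mice, Irs2 is lowest in AngII+3W, and Prkaa2 is far apart in the 2 libraries of CTRL and of AngII+3W.

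Insr encodes the insulin receptor (chromosome 8, 3122061 to 3279617, reverse strand, GRCm38). Its level was 321 and 309.5 CPM in CTRL, 312 and 280.4 in AngII, then 271 and 297 in AngII+2W, then 336 and 301 in AngII+3W. It had the narrowest range of the 10 genes, with the highest library 1.24 times the lowest, and only AngII+2W lay below CTRL without overlap. Its difference from CTRL on the log2 scale was -0.09 in AngII (95% interval -0.41 to 0.23, edgeR's quasi-likelihood test, FDR 0.781), -0.15 in AngII+2W (-0.47 to 0.17, FDR 0.766) and 0.02 in AngII+3W (-0.30 to 0.33, FDR 0.974). Neither an increase nor a decrease of Insr by 2-fold lies within these intervals.

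Irs1 and Irs2 encode the main adaptors of the insulin receptor, and their levels differed most in AngII+3W. Irs1 (chromosome 1, 82233101 to 82291416, reverse strand) measured 191 and 148 CPM in CTRL and 189.6 and 173 in AngII, and after the infusion 192 and 171 in AngII+2W beside 173 and 195 in AngII+3W. All groups overlapped, with log2 fold changes of 0.10, 0.10 and 0.12 against CTRL (SE 0.16 in each, edgeR FDR 0.800, 0.891 and 0.810). Irs2 (chromosome 8, 10984681 to 11008458, reverse strand) had 214 and 169 CPM (CTRL), 191 and 113 CPM (AngII), 198 and 122 CPM (AngII+2W) and 78.4 and 109.6 CPM (AngII+3W). Both AngII+3W libraries were below all other libraries, while AngII and AngII+2W each had 1 library within the CTRL range and 1 below it. The level in AngII+3W was 2.04-fold lower than in CTRL, with a log2 fold change of -1.03 ± 0.32 (SE, n = 2 libraries per group, 95% interval -1.78 to -0.27), which did not pass the threshold in edgeR (unadjusted p = 0.0139, FDR 0.251).

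For Irs2 the log2 fold change was -0.33 in AngII (95% interval -1.08 to 0.41) and -0.26 in AngII+2W (-1.002 to 0.48), and between AngII+3W and AngII+2W it was -0.77 (unadjusted p = 0.0458, FDR 0.555, edgeR). Against CTRL the value in AngII+3W was -0.81 without AngII+3W replicate 1, the library with skeletal muscle markers, and -1.34 without AngII+3W replicate 2. The value for AngII against CTRL rested on a single library, since it was -0.01 without AngII replicate 2 and -0.75 without AngII replicate 1. The value for AngII+2W likewise was 0.04 without AngII+2W replicate 2 and -0.66 without AngII+2W replicate 1. The circadian clock genes, whose RNA follows the time of day, were highest in sum in AngII+3W. The sum mixes opposite directions, since against CTRL 8 of the 13 genes had a positive log2 fold change in AngII+3W and 5 a negative one. Mean Dbp, for example, was 121 CPM against 33.6 in CTRL, and mean Arntl was 9.11 against 31.0. Of the 13 clock genes, 9 had an unadjusted p below 0.05 in edgeR, against 12.5% of all genes. Their summed level was 1288 to 1400 CPM there against 1033 to 1039 in CTRL, 672 to 704 in AngII and 827 to 862 in AngII+2W, and none of these groups overlapped. The part of sampling time in the Irs2 values was not tested, and the labels give no time of day.

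Since both adaptor genes were counted in the same library, their ratio does not depend on library size. This pair and the other pairs below were chosen after the values were seen, so that the ratios are a description. The counts of Irs2 were 1.12 and 1.14 times those of Irs1 in CTRL, 1.01 and 0.655 times in AngII, 1.03 and 0.714 times in AngII+2W, and 0.454 and 0.562 times in AngII+3W. Irs2 thus had more counts than Irs1 in both CTRL libraries and fewer in both AngII+3W libraries, and the ratio was below CTRL in all 6 libraries of AngII-treated mice. Exons of Irs1 overlap those of Gm9747 on the opposite strand, which had 0 to 2 counts per library. Exons of Irs2 overlap those of 9530052E02Rik on the opposite strand, a symbol without a row among the counted genes, so that its level is not known here.

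The sequences upstream of the 2 adaptor genes are shown because these paralogues differed in level and yet share a motif. They are the 250 bases before the RefSeq start on GRCm38.p6, written 5′ to 3′ on the gene's own strand, and capitals mark the E-box CACGTG, which is its own reverse complement and is bound by basic helix-loop-helix factors, those of the clock and Myc among them. The Irs1 sequence lies at chr1:82291440-82291689 on the reverse strand and the Irs2 sequence at chr8:11008930-11009179 on the reverse strand.
Irs1: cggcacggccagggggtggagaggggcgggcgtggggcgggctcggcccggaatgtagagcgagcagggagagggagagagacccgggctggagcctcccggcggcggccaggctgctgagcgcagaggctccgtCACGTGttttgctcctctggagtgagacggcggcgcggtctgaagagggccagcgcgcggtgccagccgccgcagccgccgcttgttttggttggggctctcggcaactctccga
Irs2: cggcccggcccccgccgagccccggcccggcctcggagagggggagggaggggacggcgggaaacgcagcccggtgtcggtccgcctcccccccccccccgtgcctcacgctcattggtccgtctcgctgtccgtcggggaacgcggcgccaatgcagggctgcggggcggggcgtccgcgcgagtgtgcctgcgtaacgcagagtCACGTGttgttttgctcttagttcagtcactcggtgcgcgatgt
The Irs2 window stops at 11008930, well upstream of the 5′ end of the gene given above, 11008458. For Irs1 the window stops at 82291440, close to the 5′ end at 82291416. Distances to the motif are therefore those from the RefSeq starts alone. The motif begins 115 bases before the Irs1 start and 44 bases before the Irs2 start. It is embedded in both genes in the same stretch of 10 bases, gtCACGTGtt, which was found in 23 of the 32851 upstream windows in the table (0.0700%). The stretch was defined by extending the E-box on both sides as far as the Irs1 and Irs2 sequences agree. Its presence in both genes was thus set by this choice, and its rarity is no test of a shared element. The E-box alone was found in 6.02% of windows and in 2 of the 12 windows of the genes described here. A match of letters is a description of the sequence and does not show that a factor binds there.

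Akt1 and Akt2 encode kinases that carry the insulin signal onward, Akt2 being the form best known from glucose uptake. Akt1 (chromosome 12, 112653821 to 112674884, reverse strand) was at 109.9 and 100.8 CPM in the CTRL libraries, at 103 and 119 in those of AngII, at 79.0 and 81.5 in those of AngII+2W, and at 93.2 and 91.0 in those of AngII+3W. The AngII+2W libraries were the lowest, both AngII+3W libraries came next, and CTRL and AngII overlapped. Against AngII the level in AngII+2W was 1.38-fold lower, with a log2 fold change of -0.47 ± 0.12 (SE, 95% interval -0.76 to -0.18), and this was the smallest adjusted value of all 60 comparisons of the 10 genes (edgeR unadjusted p = 0.00589, FDR 0.146). Against CTRL it was -0.39 in AngII+2W (95% interval -0.68 to -0.11, FDR 0.320), -0.19 in AngII+3W (FDR 0.565) and 0.07 in AngII (FDR 0.801). These intervals leave room for decreases that are smaller than 2-fold.

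Akt2 (chromosome 7, 27591552 to 27640826, forward strand) measured 259 and 343 CPM in CTRL and 289 and 267 in AngII, and after the infusion 264 and 279 in AngII+2W beside 340.5 and 290.5 in AngII+3W. The CTRL libraries enclosed all others, and the log2 fold changes against CTRL were -0.12, -0.15 and 0.07 with an SE of 0.17 each (edgeR FDR 0.771, 0.829 and 0.909). Akt1 had 0.424 and 0.294 counts for each count of Akt2 in CTRL, 0.356 and 0.446 in AngII, then 0.300 and 0.292 in AngII+2W, then 0.274 and 0.313 in AngII+3W, so that AngII was above AngII+2W and AngII+3W while the CTRL range overlapped every other group. A pseudogene, Akt2-ps, matches 31.9% of an Akt2 transcript at 98.6% identity and held 0 to 3 counts per library.

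Akt1 was the only one of the 8 genes with an upstream entry that held the FOXO motif GTAAACA, read on either strand. The window lies directly before the annotated 5′ end of the gene, at chr12:112674885-112675134 on the reverse strand, and capitals mark the motif, here as TGTTTAC, its reverse complement, 161 bases before the start.
Akt1: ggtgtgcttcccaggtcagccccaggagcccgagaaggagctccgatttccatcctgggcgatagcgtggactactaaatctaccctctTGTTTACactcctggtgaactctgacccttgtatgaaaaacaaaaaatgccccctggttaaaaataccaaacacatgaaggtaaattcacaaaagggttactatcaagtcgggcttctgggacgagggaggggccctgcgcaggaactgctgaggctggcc
The motif was found in 3.17% of the 32851 windows, in 1 of the 12 windows of these genes and in none of the windows of Foxo1 and Foxo3. Insr and Foxo4 had no entry. The cAMP response element TGACGTCA, found in 1.55% of windows, and the CArG box, found in 1.47%, were in 0 of the 12 windows.

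The 3 Foxo genes encode forkhead transcription factors that turn on stress resistance, cell cycle arrest and catabolic genes when Akt is inactive. Foxo1 (chromosome 3, 52268336 to 52353221, forward strand) had 173 and 155 CPM (CTRL), 145 and 125 CPM (AngII), 141 and 137 CPM (AngII+2W) and 113 and 121 CPM (AngII+3W). All 6 libraries of AngII-treated mice were below both CTRL libraries, and the AngII+3W libraries were the lowest of all. Its log2 fold change was -0.28 ± 0.13 in AngII (95% interval -0.59 to 0.03, edgeR FDR 0.287), -0.24 ± 0.13 in AngII+2W (-0.54 to 0.07, FDR 0.583) and -0.49 ± 0.13 in AngII+3W (-0.79 to -0.18, unadjusted p = 0.00660, FDR 0.185). In AngII+3W the level was 1.40-fold lower than in CTRL, and it was between -0.59 and -0.41 with any 1 library left out. The smaller values were less stable, with -0.18 in AngII without AngII replicate 2 and -0.14 in AngII+2W without CTRL replicate 1. Exons of Foxo1 overlap those of Gm20402 on the opposite strand, which likewise had no row among the counted genes.

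Foxo3 (chromosome 10, 42181841 to 42276755, reverse strand), a gene known from studies of human longevity, was at 143 and 93.1 CPM in the CTRL libraries, at 73.0 and 84.2 in those of AngII, at 86.0 and 89.5 in those of AngII+2W, and at 65.0 and 81.2 in those of AngII+3W. Again all 6 libraries of AngII-treated mice were below both CTRL libraries, but CTRL replicate 1 stood well above CTRL replicate 2. Relative to CTRL the log2 fold change was -0.59 ± 0.21 in AngII (95% interval -1.08 to -0.09, edgeR unadjusted p = 0.0263, FDR 0.174), -0.43 ± 0.21 in AngII+2W (-0.92 to 0.07, FDR 0.537) and -0.69 ± 0.21 in AngII+3W (-1.19 to -0.19, unadjusted p = 0.0128, FDR 0.243). Without CTRL replicate 1 these values were -0.25, -0.08 and -0.35, and without CTRL replicate 2 they were -0.87, -0.70 and -0.98, so that the size of the difference depended on which CTRL library was used. CTRL replicate 1 was also the CTRL library with more smooth muscle markers (9523 against 7408 CPM) and more cardiac muscle markers (5804 against 2543 CPM), and the part of these tissues in the Foxo3 values was not tested.

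Foxo4 (chromosome X, 101254528 to 101260873, forward strand) measured 44.1 and 54.4 CPM in CTRL and 41.7 and 37.25 in AngII, and after the infusion 46.9 and 56.9 in AngII+2W beside 51.6 and 47.5 in AngII+3W. It was lower than CTRL without overlap in AngII alone, and both groups sacrificed after the infusion overlapped CTRL. The log2 fold change was -0.32 ± 0.15 in AngII (95% interval -0.68 to 0.04, edgeR FDR 0.300), 0.07 in AngII+2W and 0.01 in AngII+3W, and it was 0.40 ± 0.15 in AngII+2W against AngII (0.04 to 0.75, unadjusted p = 0.0347, FDR 0.280). Foxo1 and Foxo4 thus had their lowest levels in different groups, Foxo1 in AngII+3W and Foxo4 in AngII. Foxo1 had 3.92 and 2.84 counts for each count of Foxo4 in CTRL, 3.48 and 3.35 in AngII, then 3.02 and 2.41 in AngII+2W, then 2.19 and 2.54 in AngII+3W, where the ratio was below both CTRL libraries. Foxo3 had 3.24 and 1.71 counts for each count of Foxo4 in CTRL and 1.26 to 2.26 in the other libraries, and the lower CTRL ratio was within or next to the range of every other group.

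The upstream sequences of Foxo1 and Foxo3 are shown as those of the 2 genes that lay below CTRL in every comparison. They come from RefSeq on GRCm38.p6, end before the first annotated exon, and lie at chr3:52268087-52268335 on the forward strand and at chr10:42276756-42276945 on the reverse strand. They hold no match to the motifs searched, so that no letter is in capitals.
Foxo1: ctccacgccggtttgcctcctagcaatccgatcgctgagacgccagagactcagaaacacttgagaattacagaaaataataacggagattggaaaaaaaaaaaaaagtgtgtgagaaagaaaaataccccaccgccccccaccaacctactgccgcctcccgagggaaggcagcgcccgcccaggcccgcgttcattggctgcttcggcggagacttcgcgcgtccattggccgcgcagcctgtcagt
Foxo3: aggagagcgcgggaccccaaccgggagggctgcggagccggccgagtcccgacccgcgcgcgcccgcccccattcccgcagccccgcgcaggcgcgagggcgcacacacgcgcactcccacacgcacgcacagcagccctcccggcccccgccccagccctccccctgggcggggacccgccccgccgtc
The 250 base window of Foxo1 held 56.0% G and C with 20 CpG sites and that of Foxo3 held 76.4% with 31, against medians of 52.4% and 6 over all windows.

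**Figure D2:**
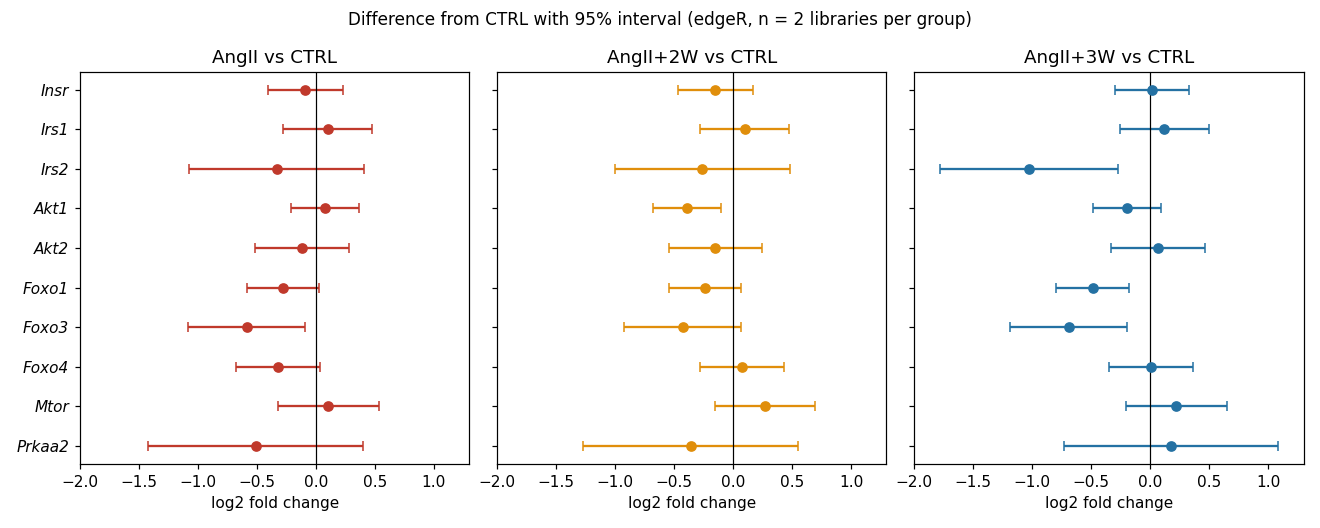
Log2 fold change against CTRL (horizontal axis) of each of the 10 genes (vertical axis) in AngII, AngII+2W and AngII+3W, with points for edgeR's estimate from 2 libraries per group and bars for its unadjusted 95% interval. The interval lies below 0 for 1 gene of AngII (Foxo3), 1 of AngII+2W (Akt1) and 3 of AngII+3W (Irs2, Foxo1 and Foxo3), and none passed the threshold after adjustment.

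Mtor encodes the kinase of both mTOR complexes (chromosome 4, 148448611 to 148557683, forward strand). It had 159 and 229 CPM (CTRL), 222 and 195 CPM (AngII), 231 and 236 CPM (AngII+2W) and 219 and 233 CPM (AngII+3W). CTRL replicate 1 was the lowest library and the rest spanned 195 to 236 CPM, and only AngII+2W lay above CTRL without overlap. Log2 fold changes for AngII, AngII+2W and AngII+3W were 0.11, 0.27 and 0.22 (SE 0.18 in each, edgeR FDR 0.810, 0.667 and 0.661). Without CTRL replicate 1 these values were -0.13, 0.04 and -0.02, so that the positive values in AngII and AngII+3W rested on that library.

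Prkaa2 encodes AMPK alpha 2, the catalytic subunit that predominates in heart and skeletal muscle (chromosome 4, 105029874 to 105109890, reverse strand). It was at 92.7 and 54.6 CPM in the CTRL libraries, at 57.7 and 45.5 in those of AngII, at 55.1 and 59.7 in those of AngII+2W, and at 117 and 49.6 in those of AngII+3W. The levels were high in CTRL replicate 1 and AngII+3W replicate 1 and alike in the other 6 libraries, which cuts across the groups. These same 2 libraries had the most cardiac muscle markers, 5804 and 6632 CPM, against 2543 CPM and less in the rest, and the part of heart tissue in the Prkaa2 values was not tested. The log2 fold change was -0.51 in AngII (95% interval -1.42 to 0.40, edgeR FDR 0.535), -0.36 in AngII+2W (-1.27 to 0.55, FDR 0.815) and 0.18 in AngII+3W (-0.73 to 1.09, FDR 0.892).

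Leaving out a single library turned the direction for Prkaa2 in AngII+3W and in AngII+2W, and changed the size alone in AngII. In AngII+3W the log2 fold change was -0.57 without AngII+3W replicate 1 and 0.62 without AngII+3W replicate 2. In AngII+2W it was 0.08 without CTRL replicate 1 and -0.69 without CTRL replicate 2. In AngII it was -0.08 without CTRL replicate 1 and -0.85 without CTRL replicate 2. Prkaa1, which encodes the alpha 1 subunit found in most tissues, varied less, with 57.7 and 51.2 CPM in CTRL, 60.9 and 57.7 in AngII, then 57.8 and 58.6 in AngII+2W, then 73.9 and 56.3 in AngII+3W. Prkaa2 had 1.61 and 1.07 counts for each count of Prkaa1 in CTRL, 0.949 and 0.790 in AngII, then 0.953 and 1.02 in AngII+2W, then 1.58 and 0.882 in AngII+3W, and the 2 highest ratios were again in CTRL replicate 1 and AngII+3W replicate 1.

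**Figure D3:**
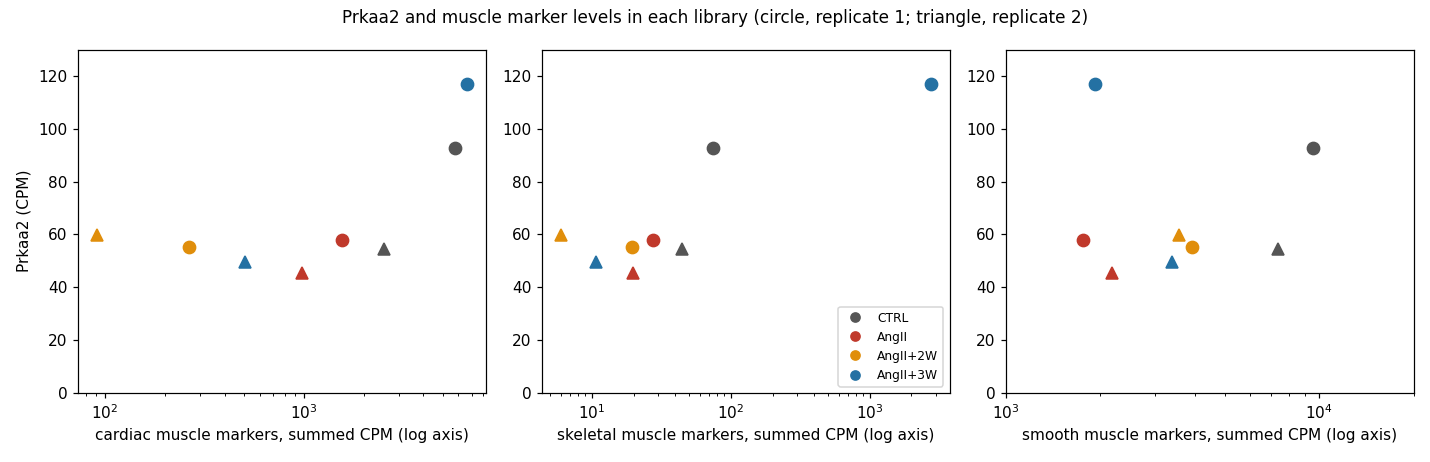
Level of Prkaa2 (vertical axis, TMM-normalized CPM) against the summed level of the cardiac, skeletal and smooth muscle markers (horizontal axes, CPM on a log scale) in the 8 libraries, with circles for replicate 1 and triangles for replicate 2. The 2 libraries with the highest Prkaa2, at 92.7 and 117 CPM, are those with the highest cardiac and skeletal sums. In CTRL replicate 1 a single marker, Ckm, gave 71.1 of the 74.9 CPM of the skeletal sum. Smooth muscle markers are high in CTRL replicate 1 and low in AngII+3W replicate 1.

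**Figure D4:**
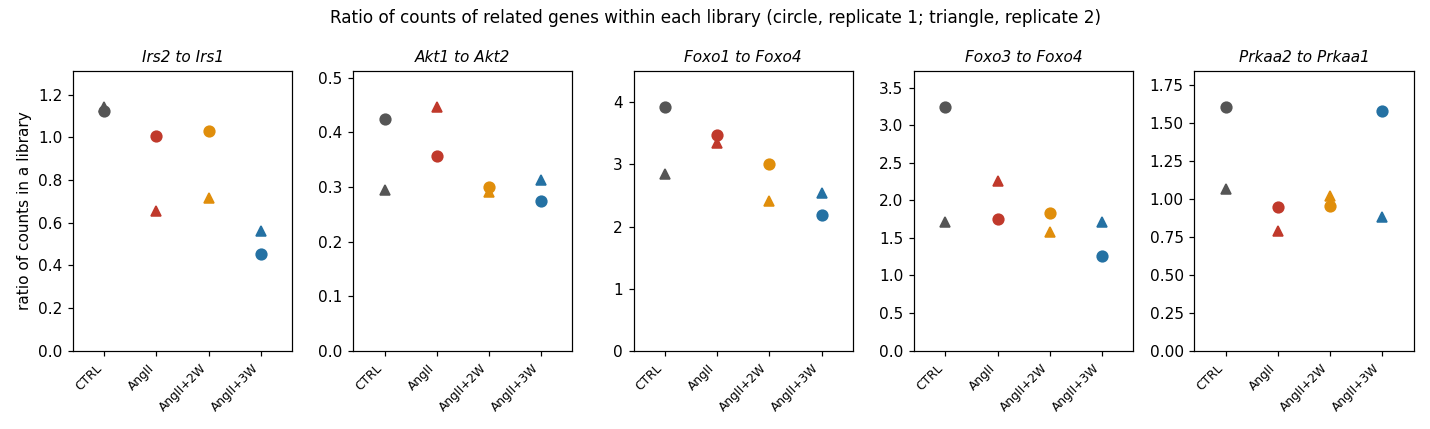
Ratio of the counts of related genes within a library (vertical axes from 0) by group (horizontal axis), with circles for replicate 1 and triangles for replicate 2. Irs2 to Irs1 goes from 1.12 and 1.14 in CTRL to 0.454 and 0.562 in AngII+3W, Foxo1 to Foxo4 from 3.92 and 2.84 to 2.19 and 2.54, Akt1 to Akt2 is higher in AngII (0.356 and 0.446) than in AngII+2W and AngII+3W, and Prkaa2 to Prkaa1 is lower in AngII and AngII+2W than in CTRL.

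Levels of different genes were compared per kilobase of annotated exon, on the scale of CPM per kb. Akt2 was the highest of the 10 genes in every library, at 36.4 to 48.1 CPM per kb, above any library of the next gene, Irs2, which reached 33.9. Irs2, Akt1, Insr, Mtor and Irs1 formed a middle range in which neighbours overlapped, with medians over the 8 libraries of 23.0, 23.7, 22.2, 22.3 and 19.8 CPM per kb. The Foxo genes were lower, with medians of 16.1 for Foxo1, 13.5 for Foxo4 and 11.2 for Foxo3, and Prkaa2 was the lowest with 7.08. In CTRL Irs2 stood second with 30.3 ± 5.10 CPM per kb (SD, n = 2), and in AngII+3W it stood sixth with 14.9 ± 3.49, behind Irs1 with 20.1 ± 1.73. These values use the full annotated exon length and not the transcripts expressed in the aorta.

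Other genes of the pathway and its surroundings were chosen and grouped into 7 lists, of which 138 genes were tested. The lists are a selection and not the annotated gene set of the pathway. In AngII 11 of them (7.97%) were called against 5.10% of all genes, in AngII+2W 0 against 0%, and in AngII+3W 1 (0.725%) against 0.285%, so that the calls in the lists followed those of the whole table. The insulin and PI3-kinase list had 1 higher and 1 lower gene of 23 tested in AngII, where 5.10% of all genes were called, and 0 in AngII+2W and AngII+3W. Grb10, an adaptor that inhibits the insulin receptor, rose from 73.3 and 54.0 CPM in CTRL to 122 and 152 in AngII. Its log2 fold change was 1.11 ± 0.19 (edgeR FDR 0.0229), and the levels in AngII+2W (77.4 and 66.1) and AngII+3W (54.5 and 62.8) were close to CTRL. Grb10 was also 2.34-fold lower in AngII+3W than in AngII (log2 fold change -1.22 ± 0.19, FDR 0.0324).

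Grb14, a related adaptor, moved the other way in AngII. It fell from 59.5 and 68.1 CPM in CTRL to 41.0 and 30.4 in AngII (log2 fold change -0.84 ± 0.19, edgeR FDR 0.0497), just past the threshold, and was at 42.1 and 56.4 CPM in AngII+2W, then at 42.0 and 41.6 CPM in AngII+3W. The AngII+2W and AngII+3W libraries were all below CTRL, without passing the test.

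In the mTOR list 0 of 27 genes were called in AngII and AngII+2W, and 1 was lower in AngII+3W. This was Ddit4, which encodes a stress-induced inhibitor of mTOR complex 1 that glucocorticoids also induce. It measured 36.4 and 30.4 CPM in CTRL and 23.5 and 23.9 in AngII, and after the infusion 30.0 and 30.1 in AngII+2W beside 14.7 and 16.3 in AngII+3W. Its log2 fold change in AngII+3W was -1.11 ± 0.14 (edgeR FDR 0.0455), and the clock genes differed in the same group as given above for Irs2, with Arntl 3.40-fold lower (FDR 0.0455). The components of the 2 mTOR complexes, the Tsc and Rag genes and the S6 kinase genes were not called.

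In the AMPK list 0 of 16 genes were higher and 1 was lower in AngII, near the 5.10% called over all genes, and 0 were called in the other groups. Prkab2, which encodes the beta 2 subunit of AMPK, had 96.0 and 60.6 CPM (CTRL), 28.0 and 35.3 CPM (AngII), 49.6 and 46.8 CPM (AngII+2W) and 38.3 and 51.5 CPM (AngII+3W). The fall in AngII was 2.47-fold (log2 fold change -1.31 ± 0.25, edgeR FDR 0.0290), and all 6 libraries of AngII-treated mice were below CTRL. Unlike Prkaa2, Prkab2 was not high in AngII+3W replicate 1.

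In the list of Foxo partners and targets 24 of 25 genes were tested, and 1 was lower in AngII, no larger a share than the 5.10% over all genes. Fbxo32, a muscle ubiquitin ligase gene that Foxo factors activate, fell 2.69-fold, from 133 and 86.0 CPM in CTRL to 44.5 and 36.8 in AngII (log2 fold change -1.43 ± 0.29, edgeR FDR 0.0375). It was at 75.8 and 88.9 CPM in AngII+2W, then at 101 and 59.5 CPM in AngII+3W, where both groups overlapped CTRL. Its highest libraries, CTRL replicate 1 and AngII+3W replicate 1, were also those with the most cardiac muscle markers. AngII+2W, with the fewest cardiac muscle markers, was above AngII, and the part of heart tissue in the Fbxo32 values was not tested. Trim63, the other muscle ubiquitin ligase gene of the list, was at 16.3 and 6.96 CPM in the CTRL libraries, at 3.13 and 2.84 in those of AngII, at 1.40 and 1.503 in those of AngII+2W, and at 19.2 and 2.63 in those of AngII+3W, and it was named here after its values were seen. Its replicates stood in the order of the cardiac marker levels in CTRL, AngII and AngII+3W and in the reverse order in AngII+2W. Other targets, among them Sod2, Cat, Cdkn1b and the Sesn genes, were not called in any group. They were not all level, as Sesn2 was at 30.6 to 34.8 CPM in CTRL and at 13.3 to 14.2 in AngII+3W. Cdkn1b overlapped between the same groups, with 48.2 to 55.7 and 51.3 to 54.0 CPM. Sesn2 was likewise singled out after its values were seen.

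In the autophagy list 1 of 17 genes was lower in AngII, again near the 5.10% over all genes. Map1lc3a, which encodes a protein of the autophagosome membrane, measured 86.2 and 93.9 CPM in CTRL and 59.9 and 54.0 in AngII, and after the infusion 64.8 and 64.0 in AngII+2W beside 70.6 and 60.6 in AngII+3W, all below CTRL. Its log2 fold change in AngII was -0.66 ± 0.13 (edgeR FDR 0.0321). In the cAMP and Ras list 1 of 19 genes was higher and 1 lower in AngII, both of them adenylyl cyclase genes, beside 5.10% of all genes in either direction. Adcy2 rose from 1.90 and 1.32 CPM to 4.16 and 6.16 (log2 fold change 1.68 ± 0.36, FDR 0.0426), and Adcy5, an abundant form in the aorta, fell from 460 and 365 CPM to 146 and 159 (-1.44 ± 0.30, FDR 0.0395).

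In the stress protein list 4 of 12 genes tested were lower in AngII, where 2.20% of all genes were called as lower, and 0 were called in the other groups. They were Hspa1a, Hspa1b, Hspa1l and Hspa2, all genes of the Hsp70 chaperone family, and the first 2 are near-identical copies, so that they are not independent calls. Hspa1a had 297 and 66.2 CPM (CTRL), 12.96 and 19.8 CPM (AngII), 28.2 and 19.0 CPM (AngII+2W) and 9.14 and 20.4 CPM (AngII+3W), so that every library of AngII-treated mice was below CTRL while the CTRL libraries differed widely. Its log2 fold change in AngII was -3.47 ± 0.71 (edgeR FDR 0.0372), and it was -2.02 without CTRL replicate 1 and -4.19 without CTRL replicate 2. Hspa1b, a nearly identical copy whose reads cannot be told apart with certainty, followed it with 343 and 66.9 CPM in CTRL and a log2 fold change of -3.68 ± 0.74 (FDR 0.0357).

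Hspa1l and Hspa2 had less spread between the CTRL libraries. Hspa1l was at 9.06 and 5.03 CPM in CTRL and 0.918 and 1.47 in AngII (log2 fold change -2.55 ± 0.48, edgeR FDR 0.0287). Hspa2 was at 19.98 and 17.1 CPM in the CTRL libraries, at 7.45 and 6.11 in those of AngII, at 14.1 and 9.88 in those of AngII+2W, and at 6.24 and 7.47 in those of AngII+3W (-1.45 ± 0.22 in AngII, FDR 0.0172). The heat shock factor gene Hsf1 and the constitutive chaperone gene Hspa8 were not called.

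These calls in the lists were sensitive to single libraries. Of the 11 genes called in AngII, 11 were still called without either AngII+3W library, 5 without CTRL replicate 2, 1 without either AngII+2W library, and 0 without CTRL replicate 1 or without either AngII library. The number of calls over all genes went along, from 877 with all libraries to 1504 and 1492, 351, 280 and 282, and 29, 229 and 0 in the same order. Ddit4 remained called without CTRL replicate 2 (FDR 0.0351) and without AngII+3W replicate 2 (FDR 0.0164) and not without any of the other 6 libraries. All 12 genes kept their direction in each of these fits. In a fit with a replicate block, Grb14, Adcy2, Adcy5, Hspa1a, Hspa1b and Ddit4 did not pass the threshold (FDR 0.0695, 0.0550, 0.0534, 0.0649, 0.0603 and 0.0743).

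**Figure D5:**
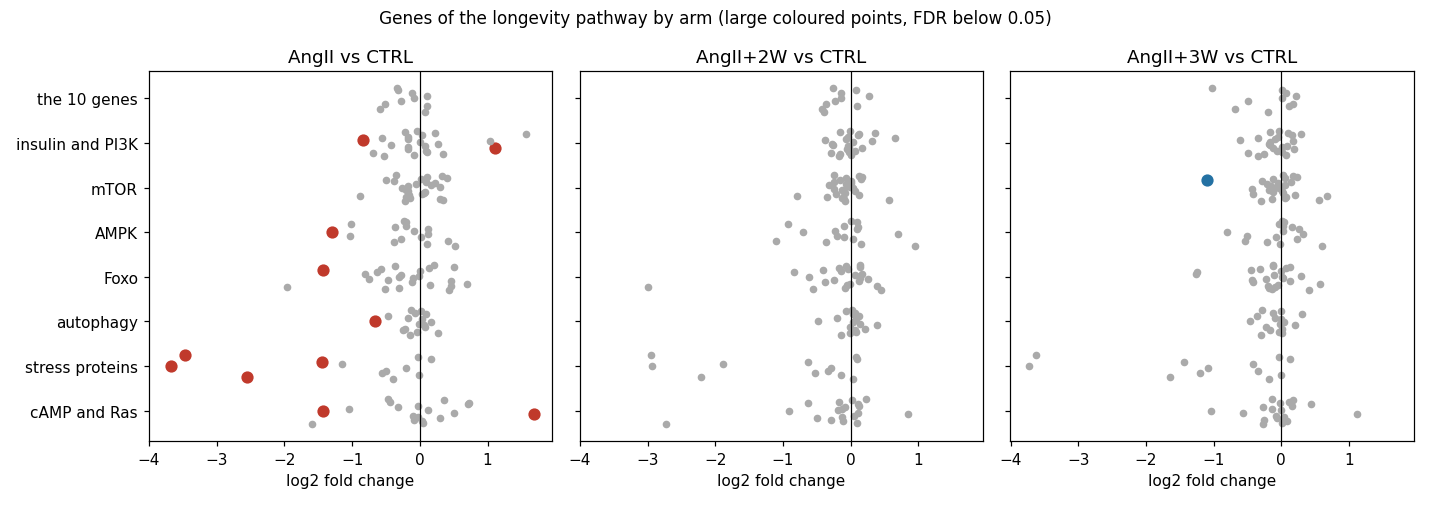
Log2 fold change against CTRL (horizontal axis) in AngII, AngII+2W and AngII+3W of the 10 genes and of the genes in the 7 chosen lists. The vertical axis has 1 row per list, and the vertical position within a row is without meaning. Small grey points are genes that did not pass an FDR of 0.05 in edgeR, and large coloured points are those that did. There are 11 coloured points for AngII, 0 for AngII+2W and 1 for AngII+3W, and none in the row of the 10 genes.

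The genes whose pattern over the 8 libraries was most like that of a given gene were found by the smallest root mean square difference of their centred log2 CPM. For Foxo3, whose own root mean square about its mean was 0.31, they were Tnfrsf11a (difference 0.07), Mgat4a (0.08) and Zfp809 (0.09). In AngII these 3 genes showed differences from CTRL of -0.72, -0.51 and -0.63 on the log2 scale, and for AngII+3W of -0.72, -0.71 and -0.64, beside -0.59 and -0.69 for Foxo3. They were picked on the same 8 libraries, so that values near those of Foxo3 follow from the choice. For Irs1, which varied little (0.13), they were Atl3 (0.06), Usp37 (0.06) and Fer (0.07), a likeness that with so small a spread comes from nearly flat levels.

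The precision of the comparisons set what could be seen. Against CTRL the 95% interval of the log2 fold change lay within -1 and 1 for 7 of the 10 genes (AngII), 8 of them (AngII+2W) and 7 of them (AngII+3W), so that a 2-fold change in either direction lay outside it. The exceptions were Irs2 and Prkaa2 in all 3 comparisons and Foxo3 in AngII and AngII+3W. The half-width of this unadjusted interval went from 0.29 to 0.91 on the log2 scale with 2 libraries per group. A difference larger than its half-width could still miss the threshold after adjustment. Irs2 in AngII+3W did so (-1.03, 95% interval -1.78 to -0.27, edgeR FDR 0.251). The lowest count of any of the 10 genes in a library was 772, of Foxo4, so that the spread between libraries and not the depth set the width of these intervals.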

How the data were processed

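RNA-sequencing of aorta was analysed in 8 libraries, 2 in each group, with groups and replicate numbers from the labels. The deposited table holds expected counts per gene, which the authors estimated with Salmon in the ARMOR workflow on Ensembl transcripts of GRCm38 (GRCm38.p6 in the submitters' processing notes) and summed with tximeta. The values are whole numbers without normalization or filtering, 11469 genes are at 0 in every library, and the length offsets that tximeta can supply were not used here. Libraries were ribosome-depleted, and counting by strand is not given in the sources used here, so that overlapping antisense genes are uncertain. Ribosomal depletion keeps unspliced RNA, which such transcript counts can leave out.

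The test was that of edgeR 4.0.16, run in R 4.3.3 (filterByExpr, TMM, 1 quasi-likelihood model of all 8 libraries with 4 residual degrees of freedom). P-values were two-sided and were adjusted over 17182 genes by the Benjamini-Hochberg method, with a threshold of 0.05. The SE is the absolute log2 fold change over the square root of F, and 95% intervals use the moderated degrees of freedom. The study names edgeR and the adjustment, not the model. An exact permutation test of 2 against 2 libraries cannot reach 0.05 and was not used. Totals of 18130441 to 21498200 counts put 3 counts at 0.140 to 0.162 CPM. These depths cover counting error only. The code was tested on simulated data.

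The 10 genes, the lists, markers and pairs were chosen with earlier results of these data known. All 10 genes are named, and from the 7 pathway lists each gene past the threshold against CTRL, with the 3 most alike genes for the gene with the smallest p among those lower and among those higher in AngII. Alternatives were DESeq2 1.42.0 (test and size factors), library totals, no mitochondrial genes, at least 1 count in all or 10 counts in every library, the likelihood ratio test, limma-voom (limma 3.58.1), the newer quasi-likelihood fit, the 2 groups alone, a replicate block, and each library left out. The same alternatives for the list genes were added after the data were seen. Positions and exon lengths came from GENCODE on GRCm38, which held 98.9% of the identifiers, upstream sequences from RefSeq on GRCm38.p6 (8 of 10 genes matched), and near copies from BLAST 2.17.0.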

Additional observations from a re-analysis of the deposited data

How the results depend on the processing

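The number of the 10 genes past the threshold was above 0 in 1 of 114 refits (19 alternatives in 6 comparisons). This was DESeq2's Wald test in AngII+3W against CTRL with 2 genes, Irs2 (log2 fold change -1.04, FDR 0.0210) and Foxo1 (-0.50, FDR 0.0495), beside FDR ranges of 0.0210 to 0.344 and 0.0495 to 0.579 over the alternatives that left out no library. The same test called 585 of 17182 genes in this comparison, against 49 with edgeR's quasi-likelihood test. With any 1 library left out the count was 0 in all 6 comparisons. Of 1140 log2 fold changes under the alternatives, 49 moved by over 1 SE and 64 had another sign; 0 of the 10 genes were called to begin with. The numbers do not pair the samples: mice differ between groups, and the replicate differences over 15048 genes correlated at -0.03 to 0.40 between groups. With a replicate block 0 of the 10 genes were called in each comparison, while 7 list genes were called in AngII in place of 11 and 0 in AngII+3W in place of 1, Ddit4. The list genes called for AngII, AngII+2W and AngII+3W went from 0 to 22, 0 to 9 and 0 to 10 over all alternatives, with DESeq2 at 22, 9 and 10 and the likelihood ratio test at 18, 7 and 10, beside 1588, 373 and 585 and 1711, 420 and 556 calls over all genes. The cause was not tested. Limits are the 2 pools per group, the mixed tissue, the muscle markers that differ between replicates, the clock genes, and the missing sampling times.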
